A study of Mus musculus with 36 samples.

Results

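The regions described here are the DNase hypersensitive sites (DHS) of 8 genes that serve antigen presentation by major histocompatibility complex (MHC) class II molecules in the mouse: Ciita, Cd74, H2-Aa, H2-Ab1, H2-Eb1, H2-DMa, H2-DMb1 and H2-Oa. A DHS is a stretch of open chromatin in which the enzyme DNase I cuts the DNA readily, and DNase-seq sequences the fragments that the enzyme releases. A DHS was taken as a member where it overlapped, by at least 1 bp, the GENCODE vM21 body of one of these genes extended by 10 kb on each side. 34 of the 52788 DHS of the table met this rule. A DHS is numbered from the lowest coordinate upward within the member gene nearest to it, so that H2-DMa DHS 2 is the second such region of H2-DMa.

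The cells were B3, a mouse pre-B cell line, in 36 libraries. In the Ikaros line a mouse stem cell virus (MSCV) retroviral vector carried HA-tagged wild-type Ikaros joined to ERt2, the hormone-binding domain of the estrogen receptor, followed by an internal ribosomal entry site and GFP. In the Control line the same kind of vector carried ERt2 and GFP without Ikaros. 4-hydroxytamoxifen (4-OHT), named at 0.5 uM, brings the fusion protein into the nucleus. Sampling of both lines took place at 0, 2, 6, 12, 18 and 24 h. There were 12 groups of 3 replicates, and replicates 4, 5 and 6 belong to batches 11, 12 and 13. The labels name 4-OHT for every library, whereas by the methods of the study the cells of 0 h had none and were collected separately. The labels place the 0 h libraries in the same batches 11, 12 and 13 as the treated ones, so they do not show a separate collection. Retroviral expression is not that of the native Ikaros gene, cells were sorted for GFP, and the data cover 1 cell line.

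MHC class II molecules are pairs of an alpha and a beta chain that carry peptides to the cell surface for CD4+ T cells. H2-Aa and H2-Ab1 encode the I-A pair, and H2-Eb1 encodes the beta chain of I-E. Cd74 encodes the invariant chain, which fills the groove of the new molecule, H2-DMa and H2-DMb1 encode the H2-DM pair that exchanges its remnant for peptide, and H2-Oa encodes one chain of H2-O, which restrains H2-DM. Ciita encodes the class II transactivator. This protein does not bind DNA itself but docks on a complex of RFX, CREB and NF-Y proteins, which sits on the X and Y boxes shared by class II promoters. Ciita expression is the switch that sets class II expression in B cells and dendritic cells, and early B-lineage cells carry less class II protein than mature B cells.

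The X and Y boxes could be read in the DHS themselves. Both boxes were searched as exact letters on both strands in a window of 300 bases at the centre of each DHS: ACNGATG for the core of the X box and GATTGG for the Y box, with the Y box starting between 10 and 40 bases after the X box core on the same strand. The pair stood in 6 of 34 member windows and in 41 of 52788 windows of the table (0.0777%). The 6 were H2-DMa DHS 3, H2-DMa DHS 5, H2-DMb1 DHS 1, H2-Ab1 DHS 5, H2-Eb1 DHS 2 and H2-Eb1 DHS 4, all within 1000 bp of the transcription start site (TSS) of a class II gene. The next 4 sequences, from GRCm38 (mm10), plus strand, 5′ to 3′, are shown because they carry both boxes upstream of a start and outside annotated exons, with the X box core and the Y box in capitals. They lie at chr17:34263138-34263201 for H2-Ab1, chr17:34305764-34305827 for H2-Eb1, chr17:34145114-34145178 for H2-DMb2 (in H2-DMa DHS 5, running past its end) and chr17:34325531-34325594 for H2-Eb2 (in H2-Eb1 DHS 4).
H2-Ab1: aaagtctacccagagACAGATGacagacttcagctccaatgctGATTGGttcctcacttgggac
H2-Eb1: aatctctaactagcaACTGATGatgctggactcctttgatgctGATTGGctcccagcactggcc
H2-DMb2: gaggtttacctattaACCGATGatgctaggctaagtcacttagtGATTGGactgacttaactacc
H2-Eb2: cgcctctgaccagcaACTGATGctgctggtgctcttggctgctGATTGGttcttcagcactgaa

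The boxes were 21 bases apart at H2-Ab1, H2-Eb1 and H2-Eb2, and 22 bases apart at H2-DMb2, on the strand of the gene in each case. The 3′ end of the printed stretch lay 8 bases from the nearest annotated start at H2-Ab1, 40 at H2-Eb1, 58 at H2-DMb2 and 71 at H2-Eb2. H2-DMa DHS 3 and H2-DMb1 DHS 1 also held the pair, 22 bases apart, over annotated exon sequence. In the RefSeq promoter windows (GRCm38.p6, 250 bases before to 50 after each start), 5 of the 8 genes were matched, and the pair stood in those of H2-DMb1 and H2-Eb1 and in 35 of 32851 windows in all (0.107%).

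2 further DHS are shown whole. H2-Aa DHS 2 is the promoter DHS of H2-Aa (minus strand, chr17:34287827-34287959) and holds the Y box without an X box core of the letters searched. The RefSeq promoter window of H2-Aa, which reaches beyond this DHS, held both an X box core and a Y box, but not as the spaced pair. H2-Ab1 DHS 6 lies inside H2-Ab1 (plus strand, chr17:34264150-34264283) and holds TTCCCA, the other strand of TGGGAA, the core of the sequence that Ikaros binds.
H2-Aa DHS 2: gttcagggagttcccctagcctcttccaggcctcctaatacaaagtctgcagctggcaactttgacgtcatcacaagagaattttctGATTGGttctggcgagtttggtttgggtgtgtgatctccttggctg
H2-Ab1 DHS 6: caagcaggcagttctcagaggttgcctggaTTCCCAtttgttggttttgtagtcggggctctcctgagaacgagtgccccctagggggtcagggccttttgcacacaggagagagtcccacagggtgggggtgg

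The Y box alone was in 13 of 34 member windows (38.2%), against 10.6% of all windows and 17.8% of those at promoter DHS. The X box core alone was in 8 (23.5%, against 11.9%), and TGGGAA was in 8 (23.5%, against 24.7%). A match is a description of letters and says nothing of whether a protein was bound.

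Values are log2 levels on the RPKM scale, that is, reads per length of DHS and per library size, after the authors' TMM scaling and ARSyN noise correction. They are per length, and a difference of 1 is a 2-fold difference. Members were 73 to 662 bp wide, so levels set side by side between DHS compare density and not total signal. The depth of the single libraries is not given by the table and is unknown here. Library medians over all DHS ran from 3.90 to 4.11. In the corrected table the 12 group means span 6 of 11 possible dimensions, so the groups are not independent of each other and p-values rest on a spread that the correction has touched. Promoter DHS were found for 7 B-lineage marker genes (Cd79a, Cd79b, Pax5, Ebf1, Vpreb1, Igll1 and Blnk, with levels from 4.76 to 5.99), for 1 of 5 T-lineage genes (Lck, 4.24) and for 1 of 6 myeloid and dendritic genes (Lyz2, 3.29); the label is pre-B lymphocyte. Where stretches of H2-DMb1 and H2-DMb2, or of H2-Eb1 and H2-Eb2, are identical, reads can align to both genes. How far these genes are alike was not measured here. The mapping options named in the methods of the study keep reads with a single alignment, so such reads would be left out of the levels.

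Of the 34 DHS, 6 belonged to Ciita on chromosome 16, 4 to Cd74 on chromosome 18, and 24 to the 6 genes of the class II region on chromosome 17. Those 24 were split as 3 at H2-Oa, 5 at H2-DMa, 3 at H2-DMb1, 6 at H2-Ab1, 2 at H2-Aa and 5 at H2-Eb1. 16 were promoter DHS of some gene, within 1000 bp of a TSS (47.1%, against 25.9% of the table), 13 lay in introns, 1 in an exon and 4 between genes. 18 were at most 200 bp wide. Mean levels over the 36 libraries ran from 3.30 (H2-Ab1 DHS 1) to 5.69 (H2-DMa DHS 1), with a median of 4.09 against 3.95 for all DHS. 22 lay above that median, and 4 were in the top 10% of the table. Member promoter DHS had a median of 4.12, below the 4.57 of all promoter DHS.

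**Figure D1:**
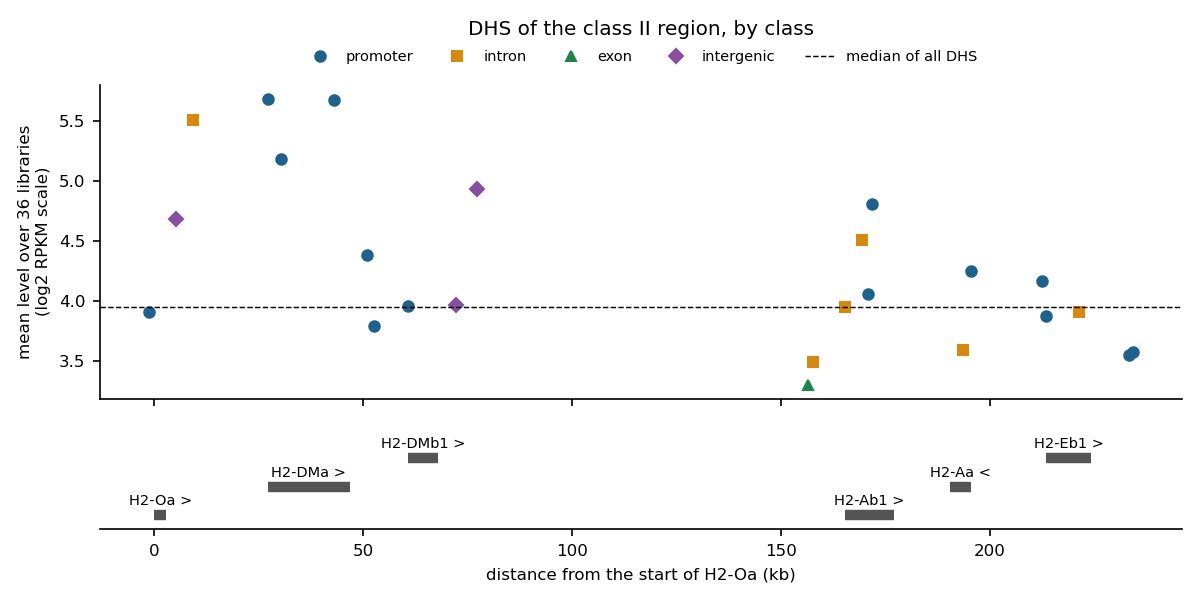
Mean level over 36 libraries (log2, RPKM scale) of the 24 DHS of the class II region against the distance in kb from the start of H2-Oa, with the gene bodies below (> plus strand, < minus strand). The 4 highest points, from 5.19 to 5.69, sit at H2-Oa and H2-DMa, and the DHS from H2-Ab1 to H2-Eb1 stay between 3.30 and 4.81.

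The 4 DHS in the top 10% overlapped the body of H2-DMa or, for H2-Oa DHS 3, lay between H2-Oa and H2-DMa. H2-DMa DHS 1 (chr17:34119241-34119780) and H2-DMa DHS 2 (chr17:34122361-34123023) are promoter DHS of Brd2, which encodes a bromodomain protein that binds acetylated histones. The second also covers the start of a long H2-DMa transcript at 34122832. H2-DMa DHS 3 (chr17:34135123-34135732) covers the 2 downstream starts of H2-DMa, and H2-Oa DHS 3 (chr17:34101408-34101920) lies in an intron of CR974462.2. So 2 of these 4 are promoter DHS of Brd2, which is not a class II gene, although H2-DMa DHS 2 is a promoter DHS of H2-DMa as well. H2-Oa DHS 3 lies 6174 bp outside H2-Oa. The 2 Brd2 sites also stood apart in base composition, at 67.5% and 68.7% GC, while the other 32 members were at or below 60.0% GC.

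Promoter DHS were present for 7 of the 8 genes. Ranked by the strongest of each, H2-DMa came first at 5.68 (DHS 3), followed by H2-Ab1 at 4.81 (DHS 6), Ciita at 4.40 (DHS 1), H2-Aa at 4.25 (DHS 2), H2-Eb1 at 4.17 (DHS 1), H2-DMb1 at 3.96 (DHS 1) and H2-Oa at 3.91 (DHS 1). By this level per length, the strongest site was not always the one over a start. H2-Ab1 DHS 6, H2-Eb1 DHS 1 and H2-Oa DHS 1 lay 899, 849 and 971 bp from the nearest start of their gene. The DHS over the start was at 4.06 for H2-Ab1 (DHS 5) and at 3.87 for H2-Eb1 (DHS 2). These sites were 500 and 503 bp wide, against 134 bp for H2-Ab1 DHS 6 and 130 bp for H2-Eb1 DHS 1. An order by total signal was not worked out. By the level of DHS 5, H2-Ab1 would rank below Ciita and H2-Aa. For the strongest sites, the lead of H2-DMa over H2-Ab1 held in 35 of 36 libraries and that of H2-Ab1 over Ciita in 28 of 36. The neighbours further down did not differ beyond their spread: Ciita was above H2-Aa in 19 of 36 libraries, H2-Aa above H2-Eb1 in 21, H2-Eb1 above H2-DMb1 in 21, and H2-DMb1 above H2-Oa in 25. Cd74 had no DHS within 1000 bp of its start, and its nearest, Cd74 DHS 2, lay 1110 bp away inside the gene. Of the 5 annotated start positions of Ciita, the upstream pair had no DHS within 7850 bp, and Ciita DHS 1 (chr16:10488014-10488087) lay 192 bp from the start at 10488279.

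**Figure D2:**
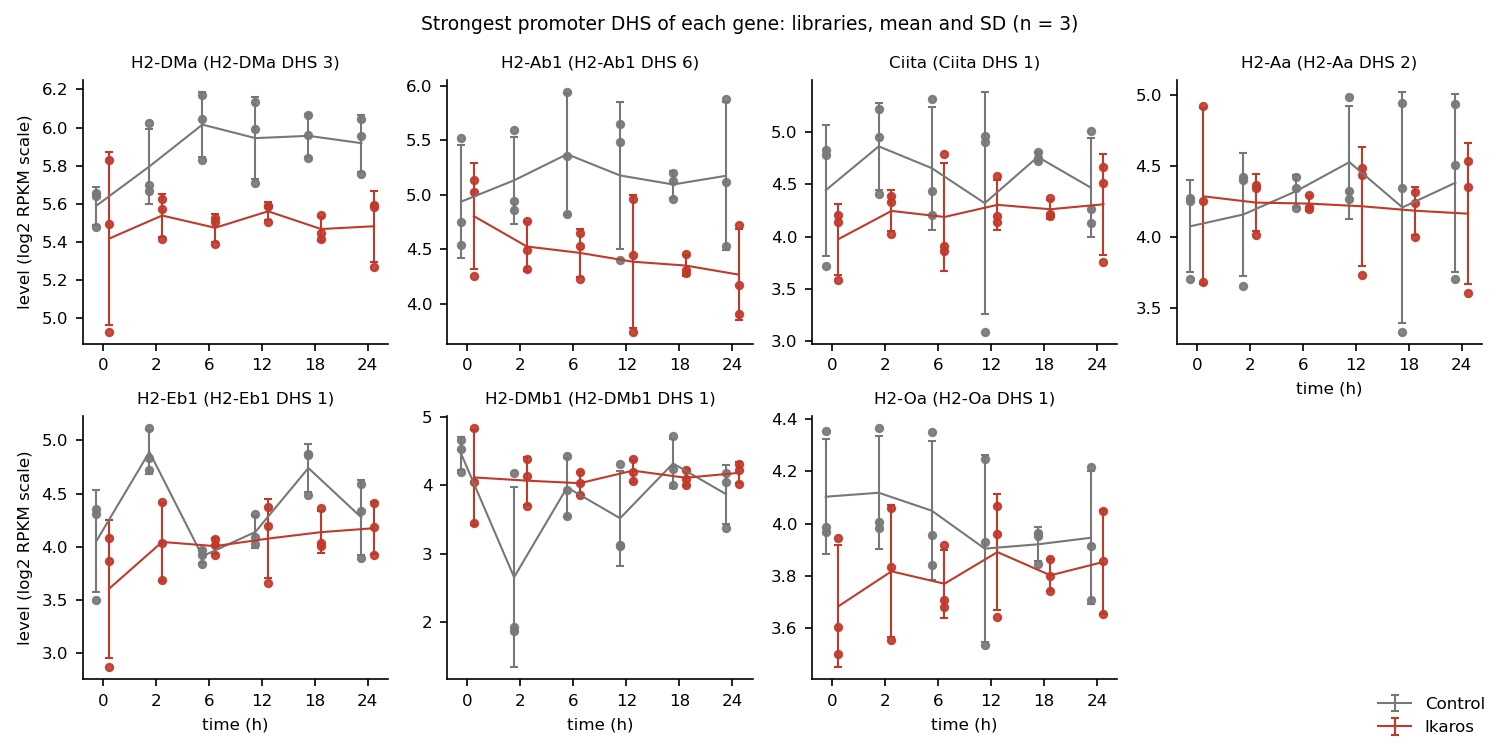
Level (log2, RPKM scale) of the strongest promoter DHS of each gene at 0, 2, 6, 12, 18 and 24 h (evenly spaced), in Control (grey) and Ikaros (red) libraries, with mean and SD of 3 replicates. The 15 Ikaros libraries of H2-DMa DHS 3 from 2 h on lie below the 15 Control libraries, and H2-DMb1 DHS 1 falls to 1.87 and 1.93 in 2 Control libraries at 2 h.

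The first question was whether the class II sites differed between the lines before induction. At 0 h, 2 of 34 passed the threshold of a limma adjusted p of 0.05 over all DHS, 1 higher and 1 lower in the Ikaros line, where 12.9% of all DHS passed. The member share is below that background. 5 members (14.7%) passed at an unadjusted p of 0.05, also below the 28.1% of all DHS. In 5 of 34 the 3 Ikaros and 3 Control values did not overlap, where 23.6% of all DHS had no overlap.

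H2-DMa DHS 2, over the Brd2 start and the long H2-DMa start, was higher in the Ikaros line at 0 h. The Ikaros libraries stood at 6.20, 6.01 and 6.00 and the Control libraries at 4.70, 5.24 and 4.21 (replicates 4, 5 and 6). Each Ikaros library was above each Control library, and within batches the difference was 1.50, 0.77 and 1.79. The fitted difference was 1.35 ± 0.21 (SE, n = 3 a group, limma adjusted p = 0.000257). It passed in 15 of 16 alternatives and missed only where the 0 h groups were fitted alone (adjusted p = 0.124). When trends with level, GC content and width were taken out of each library, the difference was 0.47 ± 0.13 (adjusted p = 0.0447).

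GC content moved with this result across the table. Among the 5279 DHS in the top 10% by GC content (62.6% or more), which include H2-DMa DHS 1 and DHS 2 and no other member, the median difference at 0 h was 0.61, against -0.06 over all DHS, and 46.8% were called higher in the Ikaros line. Its part in the result was not tested beyond the fit with the trends removed. The other Brd2 site, H2-DMa DHS 1, pointed the same way at 0 h, with a difference of 0.53 ± 0.19 that missed the threshold (adjusted p = 0.0578). Without replicate 5 of the Control group at 0 h it was 0.66 (adjusted p = 0.0288), and that library changed the number of members called from 2 to 5. The others added were H2-Eb1 DHS 2 (-0.89, limma adjusted p = 0.0155) and Cd74 DHS 1 (-1.67, limma adjusted p = 0.0297), both lower in the Ikaros line.

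H2-Oa DHS 3, in the intron of CR974462.2, was lower in the Ikaros line at 0 h, by 0.91 ± 0.26 (adjusted p = 0.0230). The Ikaros libraries were at 3.75, 4.80 and 5.34 and the Control libraries at 5.69, 5.41 and 5.52. The groups did not overlap, but the size rested mostly on replicate 4: the differences within batches were -1.93, -0.61 and -0.18. The call was lost in 8 of 16 alternatives, among them leaving out replicate 4 or replicate 5, the single libraries Control 0 h replicate 4 or 6 or Ikaros 0 h replicate 4, 1 spread per group (adjusted p = 0.0704) and the removal of trends (adjusted p = 0.0553). The adjusted p ran from 0.00288 to 0.304.

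The second question was how the sites differed after 4-OHT. From 2 h on no member passed the threshold at any time in limma, where the share of all DHS that passed was 0.195% (2 h), 0.578% (6 h), 1.31% (12 h), 0.699% (18 h) and 1.33% (24 h). At an unadjusted p of 0.05 there were 3 members (2 h), 3 (6 h), 4 (12 h), 9 (18 h) and 4 (24 h). The shares of all DHS in the same order were 10.0%, 13.8%, 15.8%, 13.1% and 14.7%, so that the member share lay above the background at 18 h (26.5%) and below it at the other times. The smallest adjusted p was 0.0812, for H2-DMa DHS 4 at 12 h. At shares this low, a count of 0 among 34 does not stand apart from the background.

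Differences after induction leaned towards lower values in the Ikaros line. At 24 h, 24 of 34 DHS (70.6%) had a lower mean in Ikaros, against 44.0% of all DHS, with a median difference of -0.15 against 0.06. At 18 h it was 25 of 34, with a median of -0.22 against 0.03, and at 2 h 18 of 34 with a median of -0.03. At 0 h, before induction, 22 of 34 were already lower, with a median of -0.15. Under quantile normalization the count at 24 h was 25 and with the trends removed 23, and leaving out 1 replicate number gave 19 to 27. The median of all DHS at 24 h was -0.02 under quantile normalization, and also with the lowest 25% of DHS left out. The lean was not particular to the members. At 24 h, 8 of 8 promoter DHS of B-lineage markers and 11 of 14 of class I presentation genes were below 0 (medians -0.19 and -0.25). It was 5 of 8 for genes of the RFX, CREB and NF-Y complex, 2 of 6 for other class II genes and 1 of 3 for antigen processing. These are counts of signs with no test, and DHS of one locus are not independent of each other. Values that did not overlap between the lines were seen in 6 members at 2 h, and then in 3 (6 h), 5 (12 h), 12 (18 h) and 6 (24 h). The background shares in the same order were 13.6%, 22.0%, 22.7%, 23.2% and 25.5%, so that the member shares at 2 h (17.6%) and 18 h (35.3%) lay above them. Of the 12 at 18 h, 11 were lower in Ikaros, and they came from Ciita (3), H2-Oa, H2-DMa (2), H2-DMb1, H2-Ab1 (2), H2-Eb1 and Cd74.

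**Figure D3:**
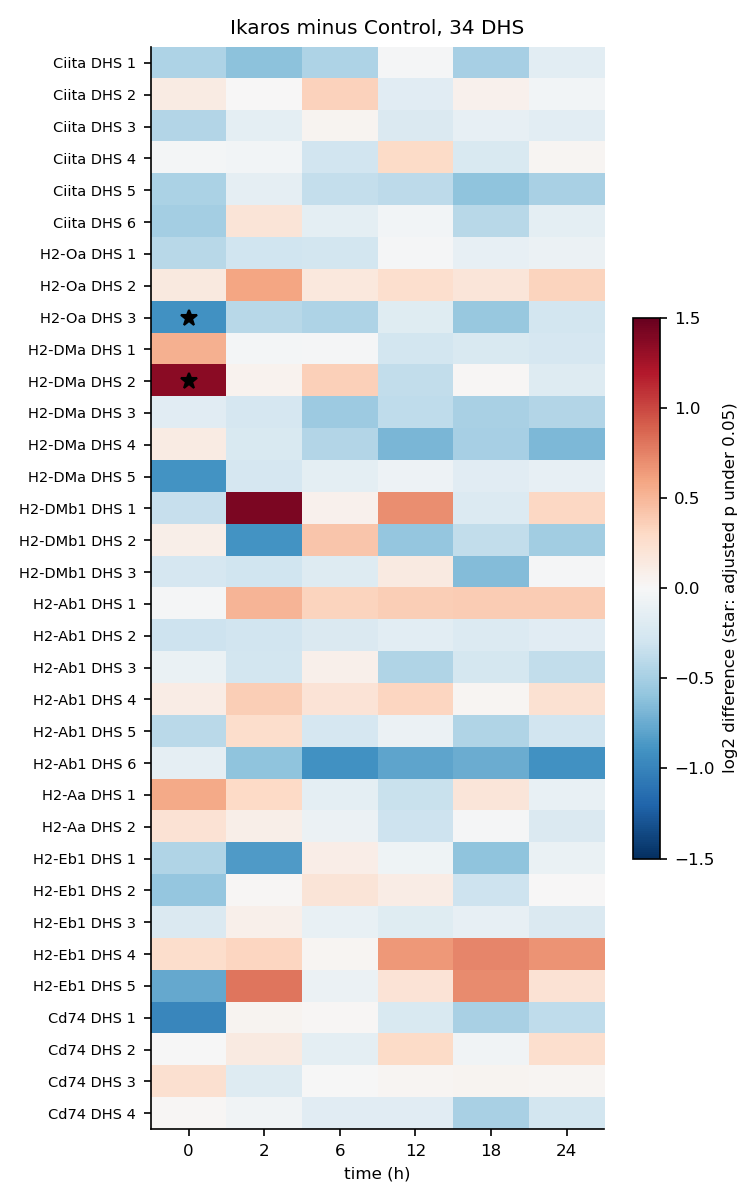
Log2 difference between the lines (Ikaros minus Control, colour) for the 34 DHS (rows) at 6 times (columns), with a star where the limma adjusted p was under 0.05. The stars are H2-DMa DHS 2 (1.35) and H2-Oa DHS 3 (-0.91) at 0 h, and no later cell has one.

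The most regular difference after induction was at the promoter of H2-DMa, which encodes the alpha chain of the peptide exchanger. From 2 h to 24 h the 15 Ikaros libraries of H2-DMa DHS 3 ran from 5.27 to 5.63 (median 5.53) and the 15 Control libraries from 5.67 to 6.17 (median 5.96). Every Ikaros library lay below every Control library, which was so for 1 of 34 members and for 0.655% of all DHS in either direction. This way of counting was chosen after the values were seen. At 24 h the Ikaros libraries were at 5.59, 5.58 and 5.27 and the Control libraries at 6.04, 5.75 and 5.96.

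No single time of H2-DMa DHS 3 passed the threshold. In the order of the times, the difference was -0.26, -0.54, -0.38, -0.49 and -0.44 (SE 0.16, adjusted p from 0.108 at 6 h to 0.620 at 2 h). Within batches it was below 0 in 3 of 3 at each of these times. With 1 spread per group it passed at 18 h (adjusted p = 0.0358) and at 24 h (adjusted p = 0.0377). At 0 h the lines overlapped, with Ikaros at 5.49, 4.93 and 5.83 and Control at 5.66, 5.64 and 5.48, a difference of -0.17 ± 0.16 (adjusted p = 0.508). With quantile normalization the site was called lower already at 0 h (-0.49 ± 0.14, adjusted p = 0.0273), so a start of the difference after induction is not shown. The change of the difference from 0 h to 24 h was -0.26 ± 0.22 (adjusted p = 0.483). With quantile normalization or the trends removed that change was above 0, at 0.22 and 0.16, so no direction is given for it.

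The next site on the chromosome, H2-DMa DHS 4 (chr17:34142972-34143547), is a promoter DHS of H2-DMb2, a second gene for the H2-DM beta chain. Its Ikaros libraries at 12 h were at 4.20, 4.15 and 4.02 and its Control libraries at 4.82, 4.91 and 4.70. The lines did not overlap at 6, 12, 18 and 24 h, Ikaros being the lower, while they overlapped at 0 h and 2 h. The difference was -0.69 ± 0.20 at 12 h (adjusted p = 0.0812) and -0.68 ± 0.20 at 24 h (adjusted p = 0.0894, or 0.0186 with 1 spread per group). From 0 h to 24 h it changed by -0.79 ± 0.29 (adjusted p = 0.0848). H2-DMa DHS 5, at the same gene with the X and Y boxes printed above, differed by -0.12 at 24 h (adjusted p = 0.919).

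**Figure D4:**
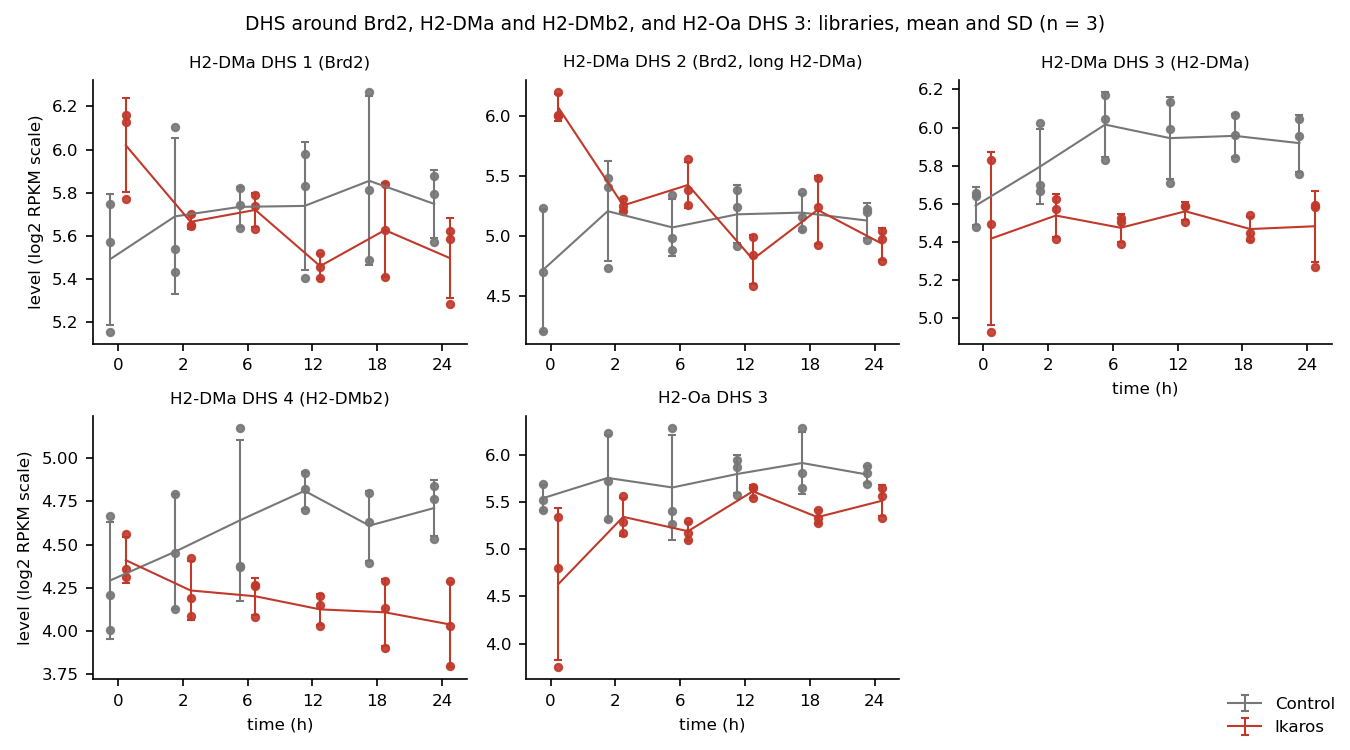
Level (log2, RPKM scale) at 0, 2, 6, 12, 18 and 24 h (evenly spaced) of 4 DHS around Brd2, H2-DMa and H2-DMb2 and of H2-Oa DHS 3, in Control (grey) and Ikaros (red) libraries, with mean and SD of 3 replicates. H2-DMa DHS 2 is apart at 0 h (6.00 to 6.20 against 4.21 to 5.24) and overlaps at 24 h, while H2-DMa DHS 3 is apart from 2 h on.

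The largest difference at 24 h among all members was at H2-Ab1 DHS 6, the site inside H2-Ab1 printed above with TTCCCA. It was -0.91 ± 0.35 (adjusted p = 0.197), from Ikaros libraries at 4.17, 4.72 and 3.90 and Control libraries at 5.11, 4.52 and 5.88. The lines overlapped, since replicate 5 went the other way (0.20, against -0.94 and -1.98 in replicates 4 and 6). Leaving out 1 library or replicate moved the value between -1.46 and -0.37. The Control values of this site spread widely, from 4.40 to 5.94 over 2 h to 24 h, against 3.74 to 4.96 in the Ikaros line. H2-Ab1 DHS 5, over the start with both boxes, was at 3.93, 3.80 and 4.14 in Ikaros and at 4.12, 4.07 and 4.54 in Control at 24 h, a difference of -0.28 ± 0.25 (adjusted p = 0.668).

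The other of the 3 lowest values at 24 h, beside H2-Ab1 DHS 6 and H2-DMa DHS 4, was at H2-DMb1 DHS 2, an intergenic site past H2-DMb1 (chr17:34164628-34164758), at -0.53 ± 0.35 (adjusted p = 0.532). Its Ikaros libraries were at 3.18, 3.41 and 4.23 and its Control libraries at 4.46, 4.30 and 3.63, and the groups overlapped. None of the 3 largest positive differences at 24 h passed the threshold. H2-Eb1 DHS 4, the promoter DHS of H2-Eb2 with both boxes printed above, had Ikaros libraries at 3.56, 4.08 and 3.84 and Control libraries at 3.52, 2.82 and 3.11. These did not overlap, and the difference was 0.68 ± 0.29 (adjusted p = 0.246). H2-Ab1 DHS 1, in an exon of H2-Ob, differed by 0.38 ± 0.34 (adjusted p = 0.669), and H2-Oa DHS 2, between genes, by 0.33 ± 0.40 (adjusted p = 0.774).

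The 6 DHS with both boxes did not share a direction at 24 h: 3 were below and 3 above 0, from -0.44 (H2-DMa DHS 3) to 0.68 (H2-Eb1 DHS 4). Of the 8 DHS with TGGGAA, 7 were below 0, with a median of -0.16, close to the -0.15 of all members.

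Ciita, the regulator of the whole set, was open at its promoter in both lines. Ciita DHS 1 stood at 4.83, 4.78 and 3.72 in Control and 3.58, 4.14 and 4.21 in Ikaros at 0 h, and at 4.13, 4.26 and 5.01 in Control and 3.76, 4.51 and 4.66 in Ikaros at 24 h. The lines overlapped at both times. The difference was -0.47 ± 0.38 at 0 h (adjusted p = 0.445) and -0.16 ± 0.38 at 24 h (adjusted p = 0.901), and leaving out 1 library or replicate moved the latter between -0.36 and 0.12. Ikaros values lay below Control values without overlap at 2 h and 18 h, with differences of -0.62 (adjusted p = 0.619) and -0.50 (adjusted p = 0.629). Of the 6 Ciita DHS, 5 were lower in Ikaros at 24 h, from -0.49 (Ciita DHS 5, adjusted p = 0.370) to 0.03. Ciita DHS 5, an intron site that also lies in Dexi, read 3.71, 3.61 and 4.06 in Ikaros against 4.32, 4.07 and 4.46 in Control.

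The I-A and I-E promoters gave no call with all libraries either. H2-Aa DHS 2 differed by -0.22 ± 0.34 at 24 h (adjusted p = 0.839), and its sign turned when replicate 6 was left out (0.34). H2-Eb1 DHS 1 was at 4.41, 4.19 and 3.92 in Ikaros and 4.59, 3.89 and 4.34 in Control at 24 h, a difference of -0.10 ± 0.26 (adjusted p = 0.912). At 2 h the same site was lower in each Ikaros library (4.42, 3.68 and 4.03) than in each Control library (4.72, 4.84 and 5.12), by 0.85 on the log2 scale with an adjusted p of 0.186. H2-Eb1 DHS 2, over the start, differed by 0.01 ± 0.25 at 24 h (adjusted p = 0.991). H2-Oa DHS 1 differed by -0.09 ± 0.21 at 24 h (adjusted p = 0.892), and by 0.05 with the trends removed.

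H2-DMb1 DHS 1, the promoter DHS of the beta chain of H2-DM, held the largest difference of any member at any time. At 2 h its Ikaros libraries were at 4.38, 4.13 and 3.69 and its Control libraries at 4.17, 1.87 and 1.93. The last 2 values are the lowest of this DHS in the series, while Control replicate 4 sat among the Ikaros libraries. The difference was 1.41 ± 0.41 (adjusted p = 0.150). Without Control 2 h replicate 4 it was 2.17 ± 0.34 (adjusted p = 0.00421), and the F-test of change over time in the Control line then gave an adjusted p of 0.0102, where with all libraries it gave 0.151. At 24 h the lines were at 4.31, 4.01 and 4.23 in Ikaros and 3.38, 4.05 and 4.18 in Control, a difference of 0.31 ± 0.41 (adjusted p = 0.800).

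Cd74, whose invariant chain accompanies each class II molecule, gave no call in its gene body. Cd74 DHS 3 read 4.20, 4.18 and 4.34 in Ikaros and 3.97, 4.50 and 4.16 in Control at 24 h, a difference of 0.03 ± 0.18 (adjusted p = 0.957). Cd74 DHS 2 differed by 0.25 ± 0.33 (adjusted p = 0.800) and Cd74 DHS 4 by -0.27 ± 0.21 (adjusted p = 0.594). At 18 h Cd74 DHS 4, an intron site, was at 4.44, 3.95 and 4.39 in Ikaros and at 4.71, 4.80 and 4.75 in Control. The lines did not overlap there and the difference was below 0 in 3 of 3 batches, at -0.49 ± 0.21 with a limma adjusted p of 0.290. Over all 6 times the largest departure was at the intergenic Cd74 DHS 1, at -0.97 ± 0.53 at 0 h (adjusted p = 0.225), whose Ikaros libraries ran from 1.64 to 3.77 at that time. Without Control 0 h replicate 5 this site was called, at -1.67 (limma adjusted p = 0.0297).

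The third question was change over time. The change of the line difference from 0 h to 24 h was called in 1 of 34 members, against 6.26% of all DHS, the interaction of line and time in 1 (against 1.1%), and change over time within the Ikaros line in 1 (against 2.29%). Within the Control line none was called (against 0.148%), with 4 (11.8%) at an unadjusted p of 0.05, close to the 12.6% of all DHS. All 3 calls were H2-DMa DHS 2. Its Ikaros libraries fell from 6.20, 6.01 and 6.00 at 0 h to 5.31, 5.21 and 5.25 at 2 h, and read 5.04, 4.79 and 4.98 at 24 h, while its Control libraries at 24 h were at 5.23, 5.20 and 4.96. The lines were apart at 0 h and overlapped at 24 h. The change was -1.55 ± 0.29 (adjusted p = 0.00664), the interaction F-test gave an adjusted p of 0.0178 and the F-test in the Ikaros line 0.00639.

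The size of this change moved with GC content as well. It was -0.62 ± 0.18 (adjusted p = 0.111) with the trends removed, and the median change over the GC-richest 10% of the table was -0.66, against 0.12 over all DHS. Quantile normalization moved the median change of all DHS to -0.04 and left the site at -1.29 (adjusted p = 0.0194). The call was missed without replicate 4 (-1.48), without replicate 6 (-1.44) and with the groups of the contrast fitted alone. The interaction was called in 37 of 45 alternatives and was lost without Control 0 h replicate 6 or Ikaros 0 h replicate 4, while the F-test in the Ikaros line was lost without the latter and in 4 other alternatives. Of the 15 Ikaros libraries from 2 h on, none exceeded 5.64.

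Single libraries also added members to these counts. Without Control 0 h replicate 5 or Ikaros 0 h replicate 5, the other Brd2 site, H2-DMa DHS 1, passed in the change from 0 h to 24 h (-0.91, adjusted p = 0.0356, and -0.90, adjusted p = 0.0469). Without Control 2 h replicate 4, H2-DMb1 DHS 1 passed in the interaction (adjusted p = 0.0203), and without Ikaros 0 h replicate 6, H2-Oa DHS 3 passed in the F-test of the Ikaros line (adjusted p = 0.0336). By the methods the 0 h cells were collected apart from the treated ones, while the labels give both the same batches. If they were collected apart, the time of collection and the lack of 4-OHT cannot be told apart at 0 h.

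Spread between replicates differed between the lines. Over the 34 DHS the mean SD of 3 replicates from 2 h to 24 h was 0.22 in the Ikaros line and 0.37 in the Control line, against 0.24 and 0.39 over all DHS. At 0 h it was 0.44 in Ikaros and 0.40 in Control. Group means of the members from 2 h to 24 h also moved less in the Ikaros line, with a median range of 0.15 against 0.44. This range was not taken over all DHS, so it is not shown to be particular to the members. The shared spread of the fit lies between these, and the fit with 1 spread per group is the one that added H2-DMa DHS 3 and H2-DMa DHS 4 at 24 h.

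The genes that act with the members were read from their own promoter DHS. For the complex that carries the transactivator, 6 of 7 genes had promoter DHS (Rfxap had none), 8 in all. At 0 h 5 of the 8 were called higher in the Ikaros line, none lower, where 7.81% of all DHS and 46.8% of the GC-richest 10% were called higher. They were both Nfya sites (0.91 and 0.58), Nfyb (0.79) and 1 of 2 Nfyc sites (0.56), which encode subunits of NF-Y, and Creb1 (0.64). All 5 were in the GC-richest 10% of the table, at 63.6% to 70.8% GC, and so were 5 of the 8 sites of the list. From 2 h to 24 h none of the 8 was called, and 1, the Nfyc site, had a change of -0.90 (adjusted p = 0.0247) between 0 h and 24 h, where 3.4% of all DHS were called lower in the change. Rfx5 (0.40, adjusted p = 0.262) and Rfxank (0.25, adjusted p = 0.368), subunits of RFX, were not called at 0 h.

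The other class II genes, H2-Ob, H2-DMb2 and H2-Eb2, had 6 promoter DHS (H2-Ea-ps had none). 4 of the 6 are members described above: those of H2-DMb2 are H2-DMa DHS 4 and DHS 5, and those of H2-Eb2 are H2-Eb1 DHS 4 and DHS 5. Neither these nor the 2 sites of H2-Ob were called in any limma comparison. In antigen processing, 3 of 7 genes had 1 promoter DHS each, and that of Ctsb, which encodes a lysosomal protease, was higher at 0 h (0.68, adjusted p = 0.0310). At 0 h, 7.81% of all DHS were called higher. Among the GC-richest DHS (62.6% GC or more), which include the Ctsb site at 64.8% GC, the share was 46.8%. Class I presentation had 14 promoter DHS over its 11 genes. There 3 were called higher at 0 h: 1 of 2 Psmb8 sites at 0.64, H2-D1 at 0.45 and Calr at 0.59. Of these 3, 1 was among the GC-richest DHS. At 12 h 1 site was lower (Psmb8, by 0.76 on the log2 scale, where 0.428% of all DHS were called lower). The 3 sites called at 0 h were called lower in the change to 24 h. In that change 3.4% of all DHS and 17.3% of the GC-richest DHS were called lower. Psmb8 encodes a subunit of the immunoproteasome, and its site changed by -1.28 (adjusted p = 0.0114). Of the marker genes, 1 of 8 B-lineage DHS was lower in the change, against 3.4% of all DHS, and none of the others was called.

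As a description of likeness, 3 DHS followed the 12 group means of Ciita DHS 1 most closely, with Pearson r from 0.992 to 0.995: an intergenic site near Mlana, a promoter DHS of Zfp873 and an intron site of Dnm2. For H2-Ab1 DHS 6, r was 0.996 both for a site near Eno1 and for an exon site in Cdh23 and Vsir. The 12 points share their libraries and their correction, which leaves few dimensions, and 4 and 10 DHS of the table reached r above 0.99 with these 2 sites.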

How the data were processed

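Members and gene lists were chosen with earlier results of these data known. Alignment by the authors was to mm10 (Bowtie2). Their peaks came from HOMER, per replicate, and were joined into 1 list. They counted reads with bedtools, dropped low DHS, scaled by RPKM and TMM and applied ARSyN. The deposited values are log2 levels after these steps. The log base was settled from the values: in base 2 a library sums to 369487 to 432755 RPM (reads scaled to library size) over the DHS. Depth per library is not in the table, so precision rests on 3 replicates a group. DHS coordinates are printed as deposited. Whether starts count from 0 is not stated, which leaves 1 bp open, and printed sequences take them as counted from 0.

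Differences were fitted with limma 3.58.1 in R 4.3.3 on all 52788 DHS, with 12 group means and a shared spread with an intensity trend. Adjusted p-values are two-sided and Benjamini-Hochberg adjusted over all DHS, with a threshold of 0.05. The script was tested on simulated data. Described in full were the strongest promoter DHS of each gene, the members called, and the 3 largest differences in each direction at 24 h. Alternatives were quantile normalization, contrast groups fitted alone, 1 spread per group, a replicate block, removal of trends with level, GC and width, no intensity trend, the lowest 25% of DHS left out, and each replicate number or library left out. Replicates are the study's biological replicates. The labels tie each replicate number to a batch, so the numbers pair the samples, although the deviations of same-numbered Ikaros and Control libraries from their group means correlated only between -0.18 and 0.18 (18 pairs, 3 over 0.1). Motifs were searched with pysam 0.24.0 on GRCm38.p6. Some items that these rules select are not reported here.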

Additional observations from a re-analysis of the deposited data

Results flagged for a closer look

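1 result was singled out because the line difference itself differed between time points by a test. At H2-DMa DHS 2, over the starts of Brd2 and of the long H2-DMa transcript, the Ikaros minus Control difference went from 1.35 at 0 h to -0.19 at 24 h, a change of -1.55 ± 0.29 (SE, limma adjusted p = 0.00664, n = 3 a group). The line difference was above 0 in 3 of 3 batches at 0 h and in 1 of 3 at 24 h. GC content (68.7% at this site) and the separate collection that the methods give for the 0 h cells moved with it. Their part was not tested beyond the values given above.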

How the results depend on the processing

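Of the 10 counts of called members, those at 6 h and 12 h held at 0 under each alternative run, and the replicate block changed no count or call (H2-DMa DHS 2 in the change: adjusted p = 0.0105). At 0 h the count of 2 became 0 with contrast groups fitted alone, and 1 with 1 spread per group or the trends removed. It became 3 with quantile normalization, which added H2-DMa DHS 3 (-0.49, adjusted p = 0.0273), and 3 with the lowest 25% of DHS left out, which added H2-DMa DHS 1 (0.53, adjusted p = 0.0480). 1 spread per group gave 1 call at 18 h and 2 at 24 h in place of 0. The change from 0 h to 24 h lost its call (0) with contrast groups alone and with the trends removed, the interaction lost it (0) with quantile normalization, 1 spread per group and the trends removed, and the F-test in the Ikaros line lost it (0) with the trends removed. Leaving out 1 library or replicate gave 1 to 5 calls at 0 h, 0 to 1 at 2 h, 0 to 2 in the change, 0 to 2 in the interaction, 0 to 2 in the Ikaros line and 0 to 1 in the Control line.

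Over all DHS, the number called at 0 h went from 6787 to 2 with the 0 h groups fitted alone and to 1508 with the trends removed, and at 24 h from 700 to 3230 with 1 spread per group.

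Signs turned only for values that were not called. With the trends removed, the change was -0.11 at H2-Eb1 DHS 1, 0.16 at H2-DMa DHS 3, -0.17 at H2-Ab1 DHS 1 and -0.037 at H2-Oa DHS 2, and the 24 h difference was 0.052 at H2-Oa DHS 1. With quantile normalization the change was 0.22 at H2-DMa DHS 3 and -0.060 at H2-Ab1 DHS 1. The causes were not tested.

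Leaving out 1 library or replicate, the 24 h difference ran from -0.36 to 0.12 at Ciita DHS 1, from -0.65 to 0.34 at H2-Aa DHS 2, from -0.30 to 0.058 at H2-Eb1 DHS 1 and from -0.21 to 0.14 at H2-Oa DHS 1. The change ran from -1.27 to 0.30 at H2-Aa DHS 2, -1.51 to 0.13 at H2-Ab1 DHS 6, -0.13 to 1.02 at H2-Eb1 DHS 1, -0.66 to 0.13 at H2-DMa DHS 3, -0.0059 to 0.58 at H2-Oa DHS 1, -0.013 to 0.92 at H2-Eb1 DHS 4, -0.11 to 1.14 at H2-Ab1 DHS 1, -0.093 to 0.64 at H2-Oa DHS 2 and -1.79 to 0.31 at H2-DMb1 DHS 2. The filter on low levels dropped 3 of 34 members.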
